A study of Homo sapiens with 3 samples.

Results

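The respiratory chain genes were the 95 rows, of 35851 in the deposited table, whose names match the subunits of respiratory complexes I to IV and of the ATP synthase (complex V). Of these, 82 were encoded in the nucleus and 13 in the mitochondrial genome. They were chosen by name alone: NDUF names of the A, B, C, S and V series, COX names of the classes 4 to 8, every UQCR and ATP5 name, the SDH subunits and the mitochondrial ND, CO, ATP and CYB genes. Another 20 names that end in P and digits were left out as pseudogenes. MT-ATP6 and MT-ATP8 also end in P and a digit but are protein genes that the name pattern asks for, so they were kept. The rows ATP5S and ATP5SL (assembly-related proteins), ATP5J2-PTCD1 (a readthrough), ATP5L2 and ATP5J2LP carry a matching name without being established subunits. They are counted among the nuclear members and given apart from the complexes. The pattern does not take COX4I1, CYC1 and NDUFAB1, which are counted with the other genes of the pathway.

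Poly(A) RNA was sequenced from 5637 cells, a human bladder cancer line labelled wild type, 1 library per sample. The control library (siNC) came from cells transfected with a control siRNA, and the libraries siMYBL2-1 and siMYBL2-2 from cells transfected with siRNA against MYBL2, a MYB family transcription factor of cycling cells. All were grown in RPMI 1640 with fetal bovine serum and transfected with Lipofectamine 3000. The labels state neither the time from transfection to harvest nor whether -1 and -2 are different siRNA sequences or repeats of 1 sequence. They were entered as 2 samples of 1 group, nothing says that they came from separate cultures, and the spread between them may be technical. No source used here gives the share of cells that were transfected.

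The reads assigned to rows came to 40259436 (siNC), 41818861 (siMYBL2-1) and 46177658 (siMYBL2-2). Where 3 values follow each other below, they are those of siNC, siMYBL2-1 and siMYBL2-2 in this order. MYBL2 was measured at 211, 46.0 and 56.3 RPKM (a read density: reads divided by exon length and by library size), a log2 change of -2.03 (SE 0.30), with a limma adjusted p of 0.153. All 10 epithelial and urothelial markers, among them KRT5, KRT7 and EPCAM, were at 1 RPKM or more in every library. The 4 leukocyte markers summed to 0.221 RPKM or less per library and the 3 endothelial markers to 0.109 RPKM or less, and of the 5 fibroblast markers COL1A1 alone reached 1 RPKM.

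The respiratory chain passes electrons from NADH (complex I) and succinate (complex II) through ubiquinone, complex III and cytochrome c to oxygen at complex IV, and the proton gradient built on the way drives the ATP synthase. Complex II is wholly nuclear, and the others mix nuclear and mitochondrial subunits. The mitochondrial genes are transcribed as long polycistronic RNAs from both strands of a circular genome present in many copies per cell. The tRNAs that lie between most of them are cut out, and a poly(A) tail is added. Nuclear subunit genes are transcribed one by one, often from promoters with sites for NRF1, for ETS factors such as GABPA and for YY1.

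The mitochondrial mRNAs are compact, which bears on how their rows can be read. In the GENCODE 29 transcripts, 6 of the 13 end on an unfinished stop codon (5 on T, 1 on TA) that the poly(A) tail completes. The last 24 bases of MT-CO3, the most abundant in siNC, and of others that the results turn on are shown 5′ to 3′. The stop codon or its unfinished part is in capitals.

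MT-CO3: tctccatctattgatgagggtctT
MT-ATP6: ctctacctgcacgacaacacaTAA
MT-ND3: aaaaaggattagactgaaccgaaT
MT-ND2: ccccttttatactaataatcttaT

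MT-CO3, MT-ND3 and MT-ND2 thus end on a single T, whereas MT-ATP6 ends on TAA, whose last base is also the first base of MT-CO3. MT-ATP8 and MT-ATP6 overlap by 46 bases (MT, 8527 to 8572, hg38), and MT-ND4L and MT-ND4 by 7 bases (10760 to 10766). The overlaps are shown with the start codon of the downstream gene and the stop codon of the upstream gene in capitals.

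MT-ATP8 and MT-ATP6: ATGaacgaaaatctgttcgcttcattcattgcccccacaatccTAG
MT-ND4L and MT-ND4: ATGcTAA

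Because of these overlaps 77.8% of the bases of MT-ATP8 and 93.1% of those of MT-ATP6 lie in no other row, against 97.6% or more for each of the other 11 mitochondrial genes. No source used here says how reads over shared bases were counted.

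The mitochondrial genes stood far above the nuclear ones in level. Their median was 3798, 4132 and 3217 RPKM, and the median of the 75 nuclear members with a mean of at least 1 RPKM was 17.4, 13.9 and 16.5 RPKM. The 13 mitochondrial members took 6.12%, 6.13% and 5.15% of all assigned reads, and the 82 nuclear members 0.553%, 0.452% and 0.560%. Summed RPKM was 31.3 times higher for the mitochondrial than for the nuclear members in siNC, 38.0 times in siMYBL2-1 and 25.9 times in siMYBL2-2. The siMYBL2 libraries thus lay on opposite sides of siNC in this ratio. RPKM is a share of the library, and in RNA from whole cultures fewer mitochondrial genomes and less RNA per genome cannot be told apart.

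No member passed the test of siMYBL2 against siNC. With limma on log2(RPKM + 1), 0 of the 88 members tested had an adjusted p under 0.05, and 0.00753% of all 13274 genes tested did (1 gene, no member). Of the 88, only UQCR11 had an unadjusted p under 0.05, against 4.71% of all genes, and limma-voom on the reads recovered from RPKM likewise called 0 members, with 1 under that unadjusted level. In the counts that follow, a gene is called lower where siNC lay above both siMYBL2 libraries and higher where siNC lay below both. Among all genes tested, 36.4% were lower and 29.7% higher in this sense. The nuclear members had 29 of 75 lower (38.7%), close to that background, and 10 of 75 higher (13.3%). The mitochondrial members had 4 of 13 lower (30.8%) and 2 of 13 higher (15.4%). Taken against siNC alone, 57 of 75 nuclear and 4 of 13 mitochondrial members were lower in siMYBL2-1, where 54.7% of all genes were. In siMYBL2-2 it was 37 of 75 nuclear and 11 of 13 mitochondrial members, where 52% of all genes were lower.

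The siMYBL2 libraries differed from each other in opposite ways for nuclear and mitochondrial genes. In siMYBL2-1, the median log2 ratio to siNC on the log2(RPKM + 1) scale was -0.26 for nuclear members and 0.06 for mitochondrial members, beside -0.04 for all genes tested. In siMYBL2-2 it was 0.01 for nuclear and -0.12 for mitochondrial members, beside -0.01 for all genes. Mitochondrial minus nuclear was therefore 0.32 in siMYBL2-1 and -0.13 in siMYBL2-2, with a mean difference of 0.09 that is smaller than the SD of 0.32 between the libraries. The siMYBL2 group as a whole shows no common direction of mitochondrial against nuclear genes. Between the siMYBL2 libraries, all 13 mitochondrial genes were higher in siMYBL2-1 (47.6% of all genes tested were), by 1.06-fold for MT-CO1 to 1.39-fold for MT-ND6. Of the nuclear members, 60 of 75 were lower in siMYBL2-1 than in siMYBL2-2 (80.0%, against 52.4% of all genes). A permutation test over samples cannot pass with 1 library against 2, and none was made on the difference between the classes.

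**Figure D1:**
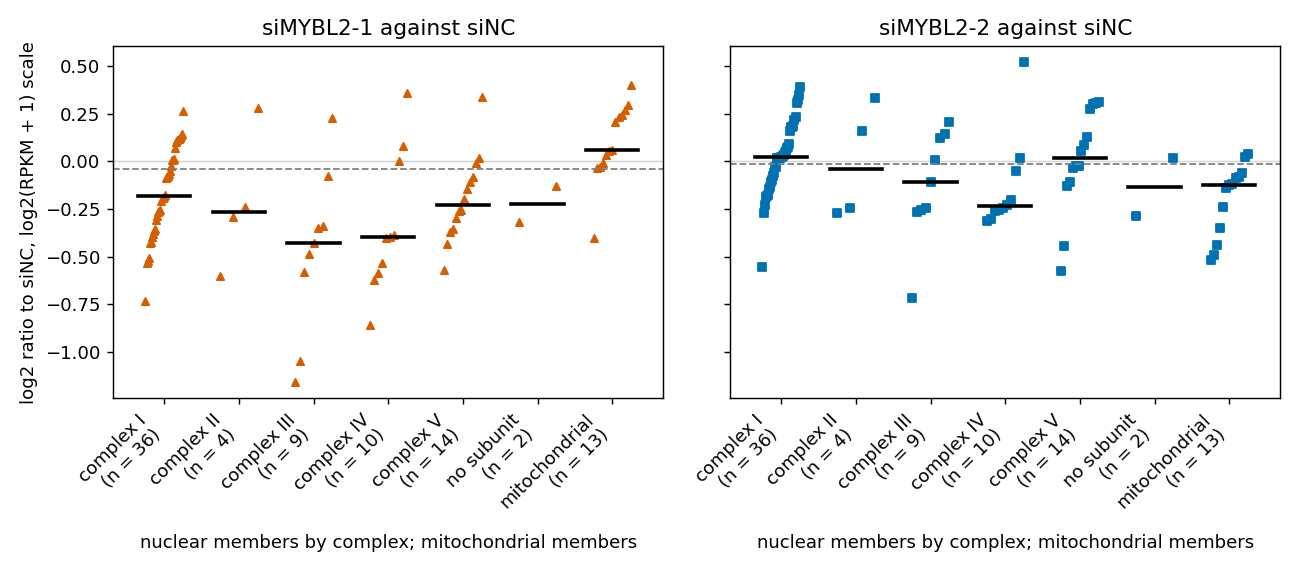
Log2 ratio to siNC on the log2(RPKM + 1) scale (vertical axis) in siMYBL2-1 (left) and siMYBL2-2 (right). Each point is 1 gene, nuclear members are grouped by complex, black bars are medians and the dashed line is the median of all 13274 genes tested. The mitochondrial median lies above the nuclear medians on the left (0.06) and below those of complexes I, II, III and V on the right (-0.12).

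Short transcripts as a class were also lower in siMYBL2-1. Among all genes tested with a principal GENCODE transcript of at most 1000 bases, 527 genes, siMYBL2-1 had a median log2 ratio of -0.13 and siMYBL2-2 of -0.02. The 34 nuclear members of that length had medians of -0.29 and -0.11. The 27 of 1000 to 2500 bases had medians of -0.26 and 0.03, beside -0.04 and 0.00 for 3203 genes of that length. The 14 above 2500 bases had medians of -0.09 and 0.04, beside -0.03 and -0.002 for 6203 genes. The part of transcript length in the nuclear values was not tested.

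Among the mitochondrial genes, the region of MT-ATP8, MT-ATP6 and MT-CO3, which no tRNA separates, had the highest levels. MT-CO3, a core subunit of cytochrome c oxidase (MT, 9207 to 9990, plus strand), had 20549, 15553 and 14356 RPKM. It was the most abundant member in siNC and lay lower in both siMYBL2 libraries, which do not overlap siNC. The ratio to siNC was 0.757 (95% counting interval 0.753 to 0.761) and 0.699 (0.695 to 0.702), and the siMYBL2 mean was 14955 ± 847 RPKM (SD, n = 2). The log2 change of -0.46 (SE 0.29) did not pass limma (adjusted p 0.999). MT-ATP6, the proton channel subunit a of the ATP synthase, was at 17779.8, 17378 and 15080 RPKM, and MT-ATP8, a small membrane subunit of the same complex, at 13517, 16026 and 12757 RPKM. In the siMYBL2 libraries MT-ATP6 therefore outranked MT-CO3, whereas in siNC the order was the reverse.

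**Figure D2:**
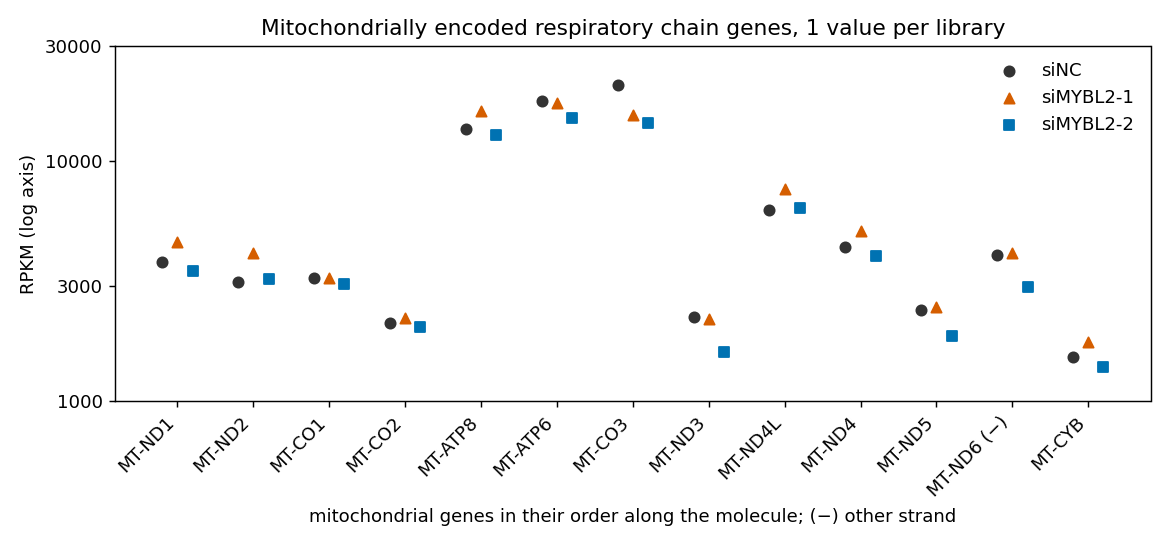
RPKM on a log axis for the 13 mitochondrial genes in their order along the molecule, 1 point per library. MT-ATP8, MT-ATP6 and MT-CO3 are the 3 highest in every library, and MT-CO3 is the gene whose siNC point stands farthest above both siMYBL2 points.

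The other complex IV genes of the mitochondrion lay within a narrower range. MT-CO1, which holds the oxygen-reducing centre, was at 3259, 3245 and 3064 RPKM. MT-CO2, which accepts electrons from cytochrome c, was at 2119, 2207 and 2033 RPKM. The call of MT-CO1 as lower rests on a ratio of 0.996 (0.987 to 1.00) in siMYBL2-1, and with median-of-ratios scaling the count of lower mitochondrial genes was 3 in place of 4.

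The complex I genes differed in where siNC lay. MT-ND2 was at 3130, 4127 and 3217 RPKM and MT-ND4L at 6225, 7646 and 6327 RPKM, the only mitochondrial members with siNC below both. MT-ND1 (3798, 4570 and 3486 RPKM) and MT-ND4 (4357, 5115 and 4020 RPKM) were highest in siMYBL2-1 and lowest in siMYBL2-2. These 4, like MT-ND3, MT-ND5 and MT-ND6, encode subunits of the membrane arm. MT-ND5 (2380, 2468 and 1866 RPKM) and MT-ND6 (4039, 4132 and 2976 RPKM) were close to siNC in siMYBL2-1 and at 0.784 and 0.737 times siNC in siMYBL2-2. MT-ND3 had 2244, 2195 and 1594 RPKM, 0.978 (0.957 to 1.00) and 0.710 (0.694 to 0.727) times siNC. MT-CYB, the only mitochondrial subunit of complex III, had the lowest mitochondrial level, at 1529, 1764 and 1388 RPKM. MT-ND6 is the only one of the 13 on the minus strand, and without a known strand setting its reads cannot be told apart from antisense RNA of the long plus-strand transcript. The adjusted p of all 13 lay between 0.999 and 1.00.

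**Figure D3:**
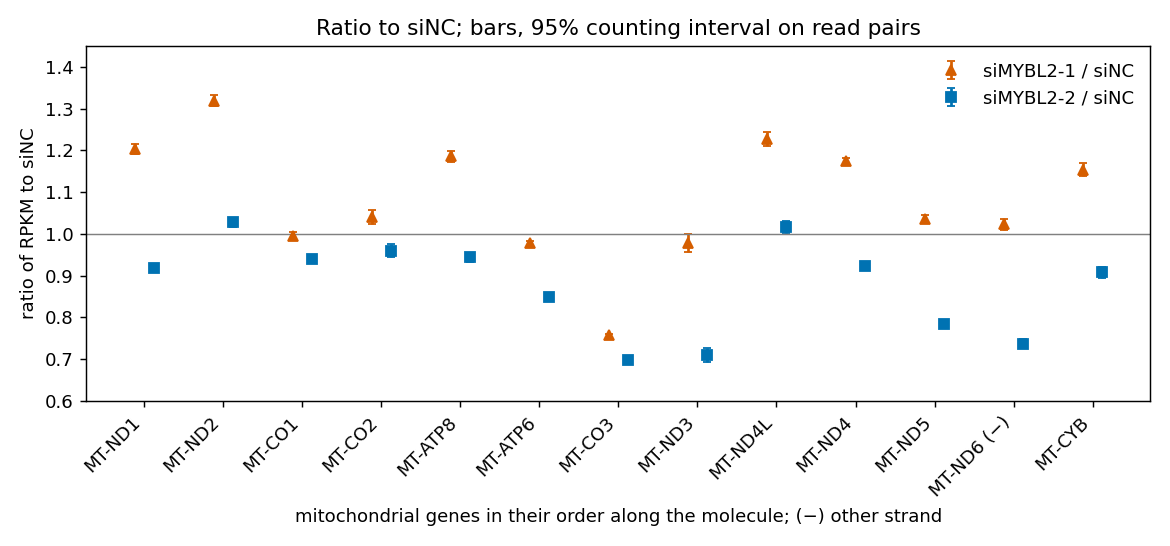
Ratio of RPKM to siNC for each mitochondrial gene in map order, siMYBL2-1 as triangles and siMYBL2-2 as squares, with 95% counting intervals on read pairs and a line at 1. Every triangle lies above its square, MT-CO3 has the lowest value in either library (0.757 and 0.699), and MT-ND2 the highest (1.32 and 1.03).

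Near-identical copies of part of the mitochondrial genome lie on nuclear chromosome 1, and their rows also took reads. MTATP6P1 (chromosome 1, 633696 to 634376, hg38) had 74361, 95738 and 87643 reads, which is 15.3%, 19.3% and 18.5% of the reads of MT-ATP6, and MTND2P28 had 13.0%, 12.04% and 12.5% of those of MT-ND2. The copy of MT-CO3, MTCO3P12, had 0.157% or less. Whether those reads came from mitochondrial RNA was not tested. With the copies added, MT-ATP6 was at 1.01 and 0.872 times siNC (0.977 and 0.848 without them), MT-ND2 at 1.31 and 1.02, and MT-CO3 at 0.757 and 0.699. For MT-ATP6, siNC then lay between the siMYBL2 libraries, so its call as lower holds only without the copy.

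Among nuclear members, complex IV had the largest share of lower genes. Of its 10 tested nuclear members, 7 were lower (70%, against 36.4% of all genes) and 2 higher (20%, against 29.7%). Their median log2 ratios were -0.40 (siMYBL2-1) and -0.24 (siMYBL2-2). COX5B, a zinc-binding subunit on the matrix side (chromosome 2, 97646040 to 97648383, plus strand), had 49.2, 26.7 and 41.0 RPKM. Its ratio to siNC was 0.542 (0.496 to 0.591) and 0.833 (0.773 to 0.898), so siMYBL2-1 lay well below the other two libraries, and the log2 change was -0.56 (SE 0.33, limma adjusted p 0.999). COX5A was higher, at 17.4, 22.6 and 17.6 RPKM, but its siMYBL2-2 ratio to siNC was 1.01 (0.895 to 1.14). NDUFA4, named as a complex I gene but now known as a complex IV subunit, was at 2.47, 1.32 and 2.02 RPKM.

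The small peripheral subunits of complex IV were mostly lower by a modest margin. COX6C, the most abundant of them, was at 275, 208 and 265 RPKM. COX7B was at 20.6, 13.9 and 16.5 RPKM. COX7C was the exception, at 96.3, 96.6 and 139 RPKM, with a siMYBL2-1 ratio to siNC of 1.00 (0.960 to 1.05). COX8A lay on both sides of siNC (11.4, 12.1 and 9.48 RPKM).

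Of the complex IV isoform pairs COX6B, COX7A and COX7B, the widely expressed form was the higher one in every library. COX6A1 was at 49.3, 37.5 and 39.4 RPKM and COX6B1 at 20.2, 15.1 and 17.1 RPKM, whereas the testis form COX6B2 was at 0.352, 0.501 and 0.369 RPKM. COX7A2 was at 14.0, 8.73 and 11.5 RPKM, and the heart and muscle form COX7A1 had no read in siNC and 0.0238 RPKM or less in the siMYBL2 libraries. COX7B2 had no read in any library. The name pattern would take COX6A2 and COX8C, but neither is among the 95 rows it found, so they have no values here.

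Complex III had the tested nuclear gene with the lowest ratio to siNC in either siMYBL2 library. UQCR11, a small accessory subunit (chromosome 19, 1597172 to 1605490, minus strand), had 24.5, 10.4 and 14.5 RPKM, from 2121, 937 and 1443 reads. Both siMYBL2 libraries lay well below siNC, with ratios of 0.425 (0.380 to 0.474) and 0.593 (0.539 to 0.652) and a siMYBL2 mean of 12.5 ± 2.91 RPKM (SD, n = 2). The log2 change was -0.94 (SE 0.31), with an unadjusted p of 0.0126 by limma and an adjusted p of 0.768. It was the only 1 of the 88 members at least 1.5-fold lower in both libraries on the log2(RPKM + 1) scale, where 2.02% of all genes were, and 0 members were 1.5-fold higher in both, against 1.32% of all genes. In UQCR11, 89.1% of exonic bases belong to no other row.

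UQCRB, a ubiquinone-binding subunit, differed between the siMYBL2 libraries, at 31.7, 14.8 and 31.9 RPKM. Its ratio to siNC was 0.467 (0.447 to 0.488) in siMYBL2-1 and 1.01 (0.973 to 1.04) in siMYBL2-2. UQCRQ, the most abundant nuclear gene of the complex, had the same order, at 117, 86.9 and 128 RPKM. The hinge protein UQCRH was at 105, 70.0 and 87.5 RPKM and its intronless copy UQCRHL at 11.7, 8.11 and 9.74 RPKM, 0.665 and 0.831 against 0.690 and 0.830 times siNC. Reads may be split between these near-identical copies. The Rieske iron-sulfur protein UQCRFS1, a catalytic subunit, was the 1 member of the 9 that was higher, at 4.85, 5.86 and 5.76 RPKM (11.1%, against 29.7% of all genes). Of the 9, 5 were lower (55.6%, against 36.4%).

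**Figure D4:**
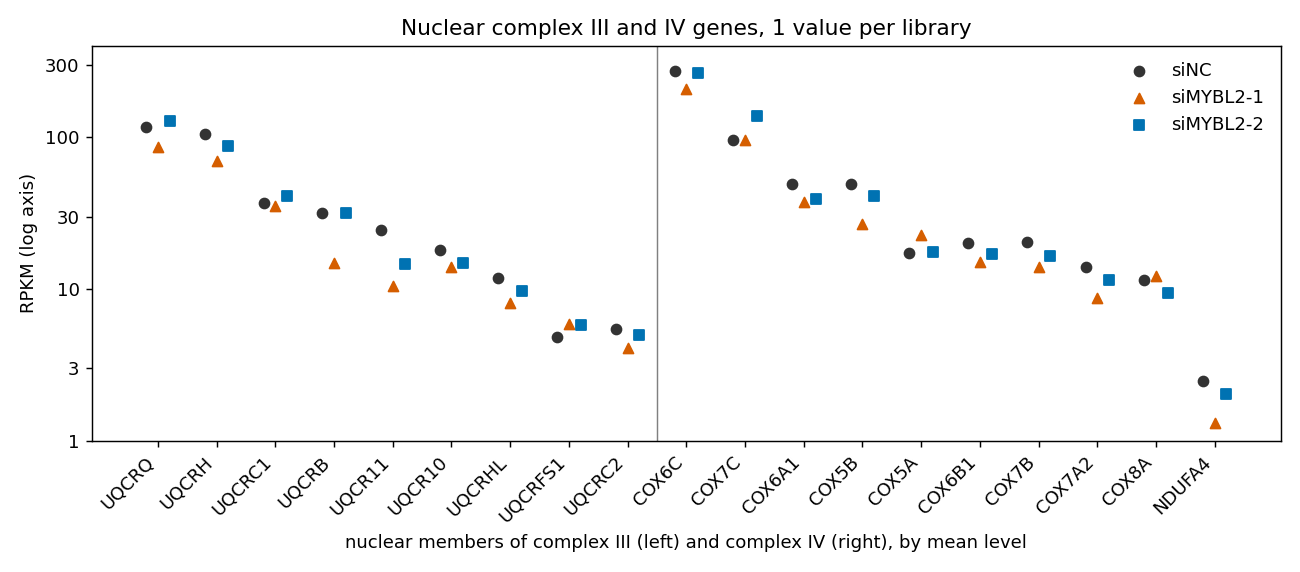
RPKM on a log axis for the 9 nuclear genes of complex III (left) and the 10 tested nuclear genes of complex IV (right), 1 point per library. The siNC point of UQCR11 (24.5 RPKM) lies above both siMYBL2 points, and UQCRB is low in siMYBL2-1 alone (14.8 RPKM).

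The start-site regions of UQCR11 and COX5B are shown with their ETS motifs, as these genes had the lowest mean change on the log2(RPKM + 1) scale among the tested nuclear genes of complexes III and IV. They are the 250 bases before the RefSeq start site on GRCh38.p14, at chr19:1605463-1605712 on the minus strand for UQCR11 and chr2:97645812-97646061 on the plus strand for COX5B, with each CCGGAAG or its reverse complement in capitals.

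UQCR11: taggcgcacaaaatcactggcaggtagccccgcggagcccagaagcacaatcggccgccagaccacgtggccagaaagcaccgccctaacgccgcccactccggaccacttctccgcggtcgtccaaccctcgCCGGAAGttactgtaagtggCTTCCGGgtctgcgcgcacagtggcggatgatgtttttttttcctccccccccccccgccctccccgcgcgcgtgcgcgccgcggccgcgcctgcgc
COX5B: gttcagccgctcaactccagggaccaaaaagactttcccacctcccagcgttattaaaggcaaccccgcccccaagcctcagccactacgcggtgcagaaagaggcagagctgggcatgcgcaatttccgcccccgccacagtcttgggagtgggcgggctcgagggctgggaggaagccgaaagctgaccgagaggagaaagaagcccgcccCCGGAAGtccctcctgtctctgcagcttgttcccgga

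UQCR11 holds 2 such motifs and COX5B 1 in the bases shown. RefSeq windows from 250 bases before to 50 bases after the start were matched for 64 of the 82 nuclear members (76 windows). CCGGAAG, on either strand, lay in 26.3% of these windows, in 18.2% of the 12228 windows of genes tested here and in 10.3% of all 35116 windows. The YY1 motif AAGATGGCG lay in 13.2%, 3.92% and 1.75%, and the NRF1 motif GCGCATGCG in 14.5%, 3.50% and 1.92%. The share of the NRF1 motif depends on its length: with 1 more C at its end, which makes it the full palindrome, it lay in 5.26%, 2.18% and 1.24%. The MYB motif TAACNG lay in 13.2% of member windows, 17.9% of those of tested genes and 20.8% of all. The CHR element TTTGAA, which the DREAM and MYB-MuvB complexes use, lay in 5.26%, 10.4% and 15.2%. These motifs have different letters, and any that overlap in a window were each counted.

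Complex II, wholly nuclear, had unlike subunits. The flavoprotein SDHA was at 20.4, 16.5 and 16.7 RPKM, 0.809 (0.770 to 0.850) and 0.819 (0.781 to 0.860) times siNC, so that the siMYBL2 libraries were nearly equal and below siNC. The membrane anchor SDHC behaved alike, at 2.84, 2.25 and 2.24 RPKM. The iron-sulfur subunit SDHB was higher in both, at 7.36, 9.14 and 9.52 RPKM, 1.24 (1.08 to 1.43) and 1.29 (1.13 to 1.48) times siNC. SDHD, the other anchor, was at 3.15, 1.73 and 3.63 RPKM. The pseudogenes SDHAP1, SDHAP2 and SDHAP3 had at most 925 reads in a library, against 5784 or more of SDHA, and 51 other pseudogene rows of nuclear members had at most 100 reads. None of the 4 subunits passed limma (adjusted p 0.999 for each).

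Of the 36 nuclear genes of complex I, 8 were lower (22.2%, against 36.4% of all genes) and 5 higher (13.9%, against 29.7%). The other 23 had siNC between the siMYBL2 libraries. Among all 13274 genes tested, siNC lay between them or was tied in 4502. The median log2 ratios of all 36 were -0.18 (siMYBL2-1) and 0.02 (siMYBL2-2). NDUFA2, an accessory subunit of the matrix arm, had the lowest mean change on the log2(RPKM + 1) scale of those lower in both, at 8.00, 5.72 and 5.14 RPKM. NDUFC2, of the membrane arm, had the highest of those higher in both, at 11.2, 11.8 and 14.9 RPKM. NDUFS5 had the highest RPKM of any nuclear member, at 492, 409 and 550 RPKM, with siNC between the siMYBL2 libraries.

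The core subunits of complex I that carry the flavin and the iron-sulfur clusters all had siNC between the siMYBL2 libraries. They are among the 23 of 36 nuclear complex I genes of which this holds. NDUFV1, which binds NADH, was at 17.9, 17.1 and 18.9 RPKM and NDUFV2 at 11.9, 9.46 and 15.0 RPKM. NDUFS1 was at 5.49, 4.07 and 5.59 RPKM, NDUFS7 at 2.09, 2.03 and 2.59 RPKM and NDUFS8 at 2.57, 2.94 and 2.50 RPKM. NDUFS3, a core subunit without a cluster, was at 12.3, 11.6 and 12.5 RPKM, also with siNC between them. For NDUFV1, NDUFS8 and NDUFS3 the counting intervals of both ratios to siNC included 1. In NDUFS7 50.9% and in NDUFV2 71.6% of exonic bases belong to no other row.

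In the ATP synthase, 6 of 14 tested nuclear genes were lower (42.9%, against 36.4% of all genes). In 7 of the 14 siNC lay between, where it lay between or was tied in 4502 of all 13274 genes. The remaining 1 was higher (7.14%, against 29.7%). The higher gene was ATP5B, the catalytic beta subunit (ATP5F1B today), at 54.5, 69.1 and 57.8 RPKM, 1.27 (1.20 to 1.33) and 1.06 (1.01 to 1.12) times siNC. Its partner in the F1 ring, the alpha subunit ATP5A1 (ATP5F1A), was at 6.25, 5.06 and 6.09 RPKM. ATP5J2, the f subunit of the membrane part (ATP5MF), had the lowest mean change on the log2(RPKM + 1) scale among the tested genes, at 31.4, 20.8 and 22.8 RPKM, 0.663 (0.611 to 0.719) and 0.726 (0.672 to 0.785) times siNC. The readthrough row ATP5J2-PTCD1 was at 28.3, 22.5 and 23.0 RPKM, but only 6.23% of its bases belong to no other row. The most abundant nuclear gene of the complex was ATP5J (coupling factor 6), at 83.8, 75.8 and 104 RPKM.

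The c ring of the ATP synthase is built from 1 mature protein encoded by 3 genes. ATP5G1 was at 7.77, 6.34 and 4.89 RPKM, ATP5G3 at 1.60, 1.42 and 1.56 RPKM and ATP5G2 at 1.13, 0.707 and 0.868 RPKM. All 3 were below siNC in both libraries. The counting intervals of ATP5G3 included 1 in both, at 0.884 (0.726 to 1.07) and 0.973 (0.806 to 1.17) times siNC. That of ATP5G2 included 1 in siMYBL2-2, at 0.766 (0.560 to 1.05) times siNC. ATP5G2 missed the level filter and was not tested.

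Levels of different genes depend on the length used. The deposited lengths are unions of exons, between 1.00 and 8.98 times the principal GENCODE transcript (median 1.74 for nuclear members). Per kilobase of the principal transcript the order of nuclear members was COX6C, NDUFS5, UQCRH, where by RPKM it was NDUFS5, COX6C, NDUFS6. ATP5J2 moved from rank 26 to rank 6 and ATP5H from 18 to 4, while the mitochondrial order did not depend on it, because those lengths are equal. Ratios of RPKM between libraries do not depend on the length. The level filter and changes on the log2(RPKM + 1) scale do, most of all for genes of low level.

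Of 7 members under the level filter, COX7A1, COX7B2, ATP5L2 and ATP5J2LP had 0 reads in siNC, and COX6B2, ATP5S and ATP5G2 were between 0.352 and 1.13 RPKM there. ATP5SL, tested, was at 4.73, 4.25 and 4.81 RPKM. Exonic bases were at least 90% free of other rows in 59 of the 88 members tested.

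Other genes of the pathway were taken from 5 lists. Of the 7 tested subunits and electron carriers outside the name pattern, 2 were lower (28.6%, against 36.4% of all genes) and 1 higher (14.3%, against 29.7%). COX4I1, the largest nuclear subunit of complex IV, was at 120, 111 and 104 RPKM, cytochrome c (CYCS) at 101, 136 and 144 RPKM and the electron transfer flavoprotein dehydrogenase ETFDH at 2.31, 1.90 and 2.27 RPKM. Of 43 tested assembly factors, 11 were lower (25.6%, against 36.4% of all genes) and 12 higher (27.9%, against 29.7%). Their median log2 ratios were -0.03 (siMYBL2-1) and 0.03 (siMYBL2-2). TMEM70, which acts in assembly of the ATP synthase, was at 7.65, 13.8 and 14.8 RPKM, NDUFAF8 (C17orf89 in the table), a complex I factor, at 94.0, 127 and 153 RPKM, and PET100, a complex IV factor, at 47.8, 26.6 and 31.9 RPKM.

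Of the genes that make, process and stabilize mitochondrial RNA, 26 were tested. Of these, 17 were higher (65.4%, against 29.7% of all genes) and 4 lower (15.4%, against 36.4%). Their median log2 ratios were 0.18 (siMYBL2-1) and 0.16 (siMYBL2-2). TFB2M, a transcription initiation factor of mitochondrial DNA, was at 9.45, 17.3 and 16.1 RPKM, and LRPPRC, which stabilizes mitochondrial mRNAs, at 15.3, 24.4 and 20.04 RPKM. PNPT1, a ribonuclease of mitochondrial RNA decay, was at 7.55, 11.3 and 11.1 RPKM and FASTKD3, an RNA-binding protein, at 1.02, 2.01 and 1.78 RPKM. The RNA polymerase POLRMT, among the 17 counted as higher, was close to siNC, at 8.44, 9.59 and 8.60 RPKM. TFAM lay on both sides of siNC, at 6.32, 6.17 and 8.75 RPKM. Of the 26, 1 was at least 1.5-fold higher in both libraries on the log2(RPKM + 1) scale (3.85%, against 1.32% of all genes). No gene of the list passed limma (smallest adjusted p 0.934, TFB2M, log2 change 0.76, SE 0.29).

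Of 11 tested genes of mitochondrial DNA replication, 2 were higher (18.2%, against 29.7% of all genes) and 1 lower (9.09%, against 36.4%). The helicase gene TWNK (C10orf2 in the table) was at 15.97, 32.02 and 21.4 RPKM, the single-strand binding protein SSBP1 at 29.5, 30.0 and 35.9 RPKM and the polymerase subunit POLG2 at 4.30, 3.80 and 3.18 RPKM. Of 10 tested nuclear regulators of respiratory genes, 5 were lower (50%, against 36.4% of all genes) and 2 higher (20%, against 29.7%). PPRC1, a coactivator of the PGC-1 family, was at 5.23, 8.94 and 6.80 RPKM, SP1 at 8.41, 6.88 and 6.76 RPKM and GABPB2, a partner of GABPA, at 2.98, 2.06 and 2.66 RPKM. No gene of any of these lists passed limma, the smallest adjusted p being 0.852 for TMEM70.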

How the data were processed

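RPKM values of the 3 libraries, with exon intervals and exonic length, make up the deposited table, per the file headers. The submitters' processing notes list cutadapt 1.9, HISAT2 2.0.4, StringTie 1.3.4d and hg38 without saying what each did. How reads were counted (program, strand, multi-mapped and overlapping reads) is stated in no source used here. Multiplying RPKM by length gave whole reads in 100% of values (tolerance 0.001 reads). In siNC, 70.9% of the rows with 1 to 20 reads had an even number, so counting intervals (exact conditional binomial, 95%) use reads divided by 2. They cover counting error only.

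The members and lists were chosen with earlier results of these data known. Differences were tested by limma-trend (limma 3.58.1, R 4.3.3) on log2(RPKM + 1), run on 13274 genes whose mean reached 1 RPKM, with Benjamini-Hochberg adjustment over all of them and a two-sided threshold of 0.05. The only residual degree of freedom is that of the siMYBL2 pair (10.2 in total after moderation), and siNC is assumed to vary alike. The fit was tested on simulated data. Named were every mitochondrial member, core and isoform genes, the most abundant and the extreme ratios per complex, and the extremes of each list. UQCRB, COX5A, NDUFA4, NDUFS6, ATP5H and ATP5SL fall outside this rule and were named after their values were seen. ATP5J2-PTCD1 and the other rows that are not established subunits also fall outside it. A gene that the rule names is not reported here. Names were matched to current symbols and start-site windows through RefSeq. The 9-letter NRF1 motif was added after the shares of the full palindrome had been seen. Mitochondrial sequences and principal transcripts are those of GENCODE release 29. Where a gene had several transcripts at its best principal rank, the longest was used, so some lengths may exceed that of the main mRNA.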

Additional observations from a re-analysis of the deposited data

How the results depend on the processing

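The count of genes called by limma was 1. It was 0 without a level filter, with a filter at 5 RPKM, with scaling to the reads outside the mitochondrial chromosome and with median-of-ratios scaling, and 10 by limma-voom on recovered reads. None of these settings called a member, and the smallest adjusted p of a member lay between 0.681 and 0.998. The adjusted p of MYBL2 was 0.00496 by limma-voom and lay between 0.118 and 0.889 under the others. Nuclear members with siNC below both siMYBL2 libraries numbered 6 with a filter at 5 RPKM, against 10. That filter also left fewer members to count, 71 of both genomes in place of 88. The share of all genes under it was not computed. With 1 siMYBL2 library left out, which leaves values with no test, the nuclear members above siNC numbered 18 in siMYBL2-1 alone and 38 in siMYBL2-2 alone. Those below siNC numbered 57 and 37, and mitochondrial members below siNC 4 and 11. The nuclear median then lay between -0.26 and 0.01, the mitochondrial median between -0.12 and 0.06 and their difference between -0.13 and 0.32. In the other alternatives the difference lay between 0.06 and 0.15, including those added after seeing the data (chromosome 1 copies added, MT-ATP6 and MT-ATP8 left out). No paired analysis was possible because siNC is a single library with no number in its label.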

Other observations

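The other RNAs of the mitochondrial genome were also measured, although poly(A) selection and small size limit what these rows hold. The large ribosomal RNA MT-RNR2 had 6493, 6272 and 5056 RPKM (siNC, siMYBL2-1, siMYBL2-2), and the small ribosomal RNA MT-RNR1 at 80.9, 83.0 and 68.9 RPKM. The tRNA rows MT-TH, MT-TS2 and MT-TL2, neighbours between MT-ND4 and MT-ND5, were at 1.25, 1.26 and 1.31 times siNC in siMYBL2-1 and at 0.603, 0.629 and 0.677 times siNC in siMYBL2-2. They were named after their values were seen. Of the 22 tRNA rows, 6 had siNC above both siMYBL2 libraries and 10 below both. Among all genes tested, 36.4% had siNC above both and 29.7% below both.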
